A study of Mus musculus with 4 samples.

Results

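Chemokine ligands are small secreted proteins that bind receptors on leukocytes and direct where those cells move. Here 10 of them were followed by cell class and day: Ccl1, Ccl3, Ccl4, Ccl5, Ccl6, Ccl9, Ccl17, Ccl22, Cxcl2 and Cxcl16. They were chosen as named ligands, with earlier results of these data known, and are 10 of the 32285 genes in the RNA tables. The chromatin data were read at the 55 accessible regions, of 127216 called in both libraries, that lie within 10 kb of a start site of these genes. The question was which cell class makes each ligand at D0 and at D5.

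The ligands fall into groups by receptor. Ccl3, Ccl4 and Ccl5 are inflammatory chemokines that attract T cells, NK cells and myeloid cells, and Ccl1 binds CCR8. Ccl17 and Ccl22 bind CCR4 and are classic products of activated dendritic cells, while Cxcl16 binds CXCR6, a receptor of liver-resident lymphocytes, and can stay on the cell surface. Ccl6 and Ccl9 are myeloid chemokines of rodents that act on CCR1, and Cxcl2 draws neutrophils through CXCR2.

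Both groups were livers of C57BL/6J mice, a wild-type inbred strain, given DDC (3,5-diethoxycarbonyl-1,4-dihydrocollidine), a compound that injures bile ducts, at 0.1% of the chow for 0 days (D0) or 5 days (D5). Live CD45+ CD64- CD11c+ cells were sorted, and RNA and accessible chromatin were read from the same nuclei by 10x Multiome. The study used male mice for its single-cell work and states an age range of young adult mice for its primary liver cells, and the labels give neither the exact age nor the number of animals behind a library. With 1 library per day, the day and the library cannot be told apart, no test between days or classes exists, and every value below is a description with a 95% interval. The intervals cover counting error only, since molecules of one nucleus are not independent. The gate on CD64- would remove most liver macrophages, so the macrophage-like nuclei described here need not stand for the tissue's macrophages.

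The RNA layer held 44496348 UMIs (unique molecular identifiers, 1 per captured RNA molecule) in 16260 called nuclei at D0 and 94374499 in 27873 at D5. After filtering, 10975 and 19859 nuclei remained, with a median of 1731 and 2559 UMIs. Nuclei were clustered without any chemokine ligand among the clustering genes and named from markers, so a name ends in "-like". The 8 classes with at least 50 nuclei on both days were NK cell-like (1444 at D0 and 1107 at D5), T cell-like (346 and 428), plasmacytoid dendritic cell (pDC)-like (2333 and 2055), type 1 conventional dendritic cell (cDC1)-like (1787 and 3172), cDC2-like (2073 and 5668), Ccr7+ dendritic cell (DC)-like (319 and 1036), macrophage-like (813 and 1515) and nonclassical monocyte-like (105 and 168). The lymphoid names overlap in markers. The T cell-like cluster also raised 7 NK cell markers, Ncr1 and Eomes among them, and the NK cell-like cluster raised the T cell markers Cd3g, Trbc2 and Bcl11b. Unnamed nuclei made up a further 15.7% at D0 and 23.2% at D5. The libraries share 591 barcodes, 3.63% of those called at D0. Levels are UMIs per 1000000 UMIs of a class (CPM), and levels of different genes are not compared with each other, because nuclear counts depend on gene length.

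Free RNA touches every value that follows. Its makeup was read from barcodes with 1 to 100 UMIs that were not called as nuclei, which held Ccl5 at 3721 CPM at D0 and 1569 at D5, Ccl4 at 2488 and 1208, Ccl3 at 659 and 279, and Ccl1 at 15.5 and 93.4. Markers of other lineages put the free RNA at 17.1 to 28.7% of a class's UMIs at D0 and 30.4 to 39.6% at D5. Hepatocyte transcripts put it higher, at 32.2 to 100% at D0 and 41.6 to 100% at D5. By them it was capped at 100% in NK cell-like, cDC2-like and macrophage-like nuclei on both days. Hepatocyte transcripts there (202 and 198, 242 and 138.5, 254 and 215 CPM at D0 and D5) exceeded the 173 and 117 CPM of these barcodes. In these classes they cannot measure the share of free RNA, and values that rest on it use the cap. Over the 10 ligands and 8 classes, 18 of 80 levels at D0 and 23 of 80 at D5 exceeded the level in these near-empty barcodes. A ligand is called made by a class below only where its level stood above what free RNA at the marker-based share would give. That share was added after seeing the data. At the share from hepatocyte transcripts fewer levels pass, and Ccl3 in cDC2-like and macrophage-like nuclei does not pass on either day.

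At D0 the highest class was NK cell-like for Ccl1, Ccl3 and Ccl4, T cell-like for Ccl5, Ccr7+ DC-like for Ccl17, Ccl22 and Cxcl16, and macrophage-like for Ccl6, Ccl9 and Cxcl2. At D5 the highest class was the same for 8 of the 10 ligands. Over all 13391 genes with enough UMIs on both days (at least 20 over the classes) it was the same for 53.6%. The ligands held 197 to 32178 UMIs at D0. Shares of all genes here and below are not matched to the ligands for UMIs. The 2 exceptions were Ccl17, whose highest class at D5 was cDC2-like, and Ccl6, whose highest class was nonclassical monocyte-like. At D0, 5 of the 10 ligands stood at least 2-fold above the next class, with a counting interval of the ratio that excludes equal levels (Ccl1, Ccl17, Ccl22, Cxcl2 and Cxcl16), where 11.2% of all genes did. At D5 this held for 4 (the same without Ccl17), where 11.8% of all genes did. Without doublet removal the count at D0 was 3, and with free RNA scaled by hepatocyte transcripts subtracted the count at D5 was 7. Cxcl16 was close to the limit, at a log2 ratio of 1.15 (0.95 to 1.36) at D0 and 1.07 (0.95 to 1.18) at D5. The other ligands were spread over neighbouring classes: the highest class was 1.13-fold above the next for Ccl4, 1.19-fold for Ccl5, 1.32-fold for Ccl3, 1.48-fold for Ccl9 and 1.88-fold for Ccl6 at D0.

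**Figure D1:**
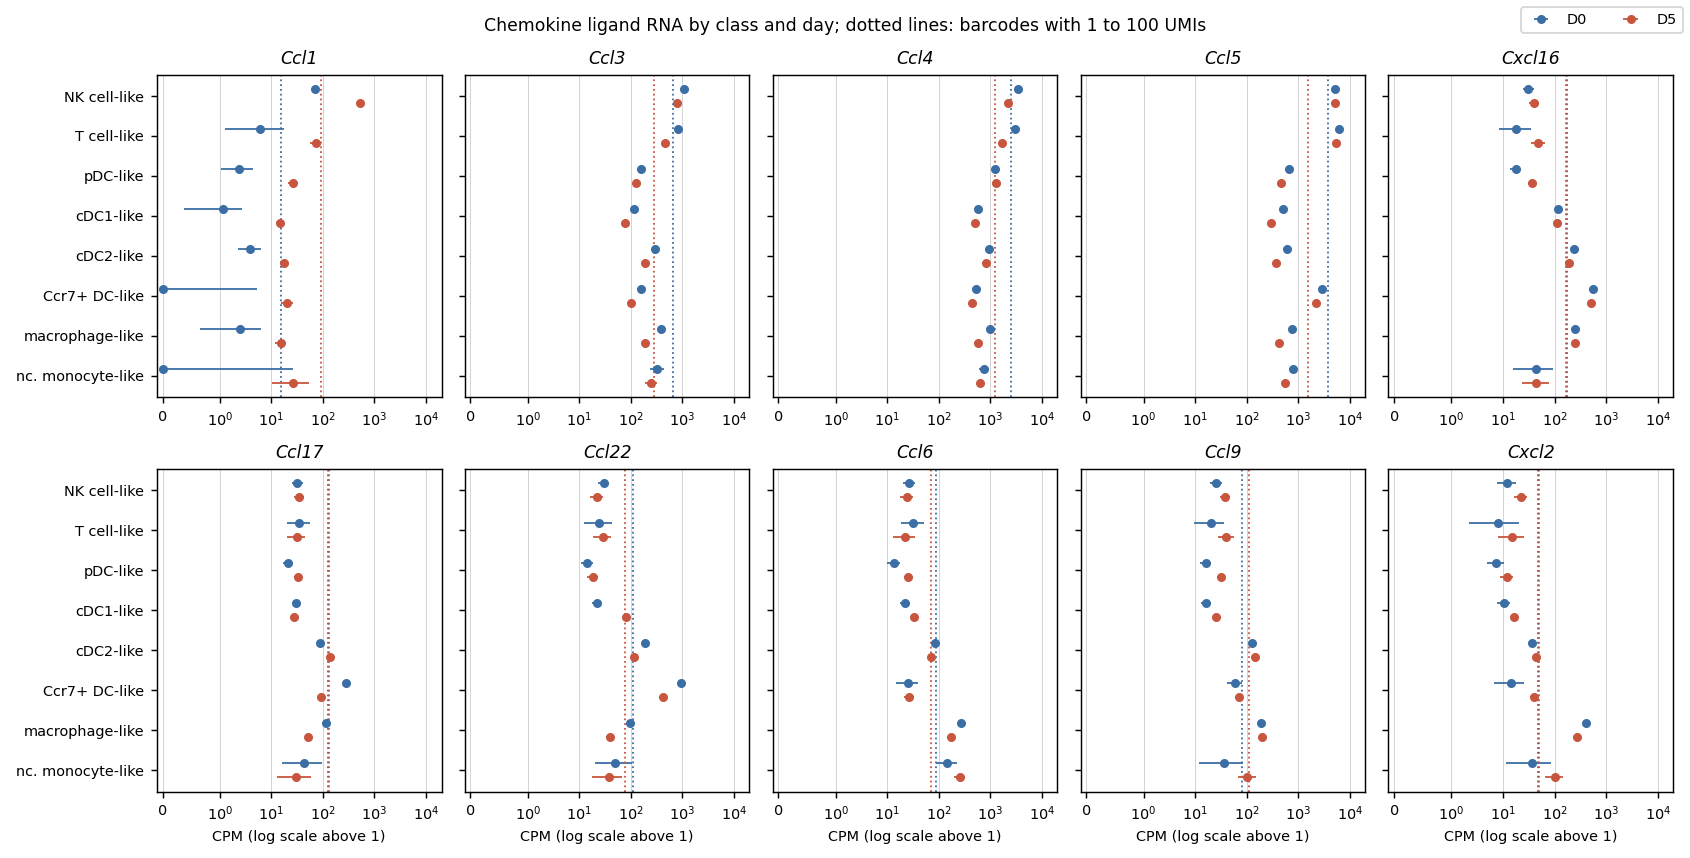
RNA of the 10 ligands in the 8 classes, in CPM (log scale above 1), with D0 in blue and D5 in red; points are class sums, bars are 95% counting intervals and dotted lines mark the level in barcodes with 1 to 100 UMIs. The Ccl1 point of NK cell-like nuclei moves from 70.1 to 530 CPM, and the Ccl22 point of Ccr7+ DC-like nuclei from 952 to 426 CPM.

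Ccl1 was the ligand that differed most between the days in its highest class. NK cell-like nuclei held 142 Ccl1 UMIs at D0, or 70.1 CPM (59.1 to 82.6), and 1152 at D5, or 530 CPM (499 to 561). The level at D5 was 7.55-fold that at D0, a log2 ratio of 2.92 (2.66 to 3.18). NK cell-like nuclei held 72.1% of all Ccl1 UMIs at D0 and 51.9% at D5. T cell-like nuclei came next among the 8 classes with 3 UMIs (6.06 CPM) at D0 and 63 (72.0 CPM) at D5, so that NK cell-like nuclei stood 11.6-fold above them at D0 and 7.35-fold at D5. Outside the 8 classes, an unnamed cluster that raised both pDC and T cell markers held 2 UMIs (4.03 CPM) in 170 nuclei at D0. At D5 it held 49 UMIs (379 CPM) in 39 nuclei. Its median depth was 2610 UMIs at D0 and 3058 at D5, against 1539 and 1741 in pDC-like and 1222 and 1733 in T cell-like nuclei. Whether it holds doublets that passed the filter was not tested.

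In Ccl1 the days differed in how many NK cell-like nuclei held the transcript more than in how much each held. At D0 the 142 UMIs of NK cell-like nuclei came from 18 of 1444 nuclei (1.25%), at a mean of 7.89 UMIs in a nucleus with any. At D5, 18.1% of NK cell-like nuclei had a UMI, at a mean of 5.76. The makeup of the class differed too: at Leiden resolution 2 a cluster led by Ncr1 and Tox was 52.0% of it at D0 and 22.4% at D5, and one led by Csf2, Camk4 and Gzmc 47.6% and 76.3%. Ccl1 was higher at D5 in both, at 5.61 CPM (2.06 to 12.2) and 211 (171 to 257) in the first, with a UMI in 0.799% and 14.5% of nuclei, and at 147 (123 to 174) and 628 (591 to 667) in the second, with a UMI in 1.75% and 19.2%. With every nucleus thinned to 1000 UMIs the shares were 1.25% and 13.4%. In pDC-like nuclei, which were set as the class to read free RNA for this gene, the shares were 0.386% and 4.38%, at median depths of 1539 and 1741 UMIs against 1220 and 1733 in NK cell-like nuclei.

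Every other class also had a higher Ccl1 level at D5. In the 6 classes other than NK cell-like and T cell-like, Ccl1 ran from 0 to 3.93 CPM at D0 and from 14.7 to 25.9 CPM at D5, which is 15.7 to 27.7% of the level in the near-empty barcodes of that day. The D5 levels are below those that free RNA at the marker-based share would give (28.4 to 36.9 CPM) and are read as background, not as expression. In T cell-like nuclei the D5 level was above the 30.5 CPM that free RNA would give. In Ccr7+ DC-like nuclei, with 0 UMIs at D0, 19.99 CPM at D5 was at least 4.75-fold higher than a floor of 3 counts (4.21 CPM).

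The start site of Ccl1 lies on chromosome 11 at position 82179812 (mm10, minus strand), inside a region called in both libraries (chr11:82179513-82180427). The RefSeq promoter, 250 bases before to 50 after the start, is shown because this is where accessibility differed along with the RNA. Capitals mark matches to the NF-kB consensus, which was searched on both strands. Matches on the 2 strands run from -196 to -187 and from -195 to -186 and overlap, so the capitals are 1 site of 11 bases. Of 27025 RefSeq promoters of this length, 8.18% hold a match.
Ccl1 promoter (GRCm38.p6, chr11:82179763-82180062, minus strand): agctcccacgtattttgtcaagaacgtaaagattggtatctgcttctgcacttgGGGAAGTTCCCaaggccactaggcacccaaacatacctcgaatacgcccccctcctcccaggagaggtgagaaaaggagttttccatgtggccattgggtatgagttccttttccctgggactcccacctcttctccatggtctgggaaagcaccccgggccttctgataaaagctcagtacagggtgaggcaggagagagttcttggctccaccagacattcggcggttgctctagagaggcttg

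The region over the Ccl1 start site was accessible almost only in the lymphoid classes. NK cell-like nuclei had 8.62 FPM (fragments per 1000000 in regions called in both libraries; 6.43 to 11.3) at D0 and 25.0 (20.04 to 30.9) at D5, a log2 ratio of 1.54 (1.02 to 2.06). T cell-like nuclei had 4.16 and 9.68 FPM with overlapping intervals, and the other 6 classes had at most 1.93 FPM at D0 and 2.03 at D5. A second region, centred 3.64 kb upstream, was open in NK cell-like (32.0 FPM at D0 and 45.6 at D5) and T cell-like nuclei (29.1 and 43.5) and at no more than 6.41 FPM elsewhere. In NK cell-like nuclei the upstream region was thus already accessible at D0, with a log2 ratio of 0.51 (0.20 to 0.82).

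Over the whole 10 kb window, Ccl1 accessibility in NK cell-like nuclei was 56.8 FPM at D0 and 89.3 at D5 (log2 ratio 0.65, 0.42 to 0.88). In cDC2-like nuclei it was 17.0 and 12.4 FPM (-0.46, -0.78 to -0.14), in macrophage-like nuclei 20.9 and 14.1 (-0.56, -1.07 to -0.05) and in pDC-like nuclei 16.4 and 11.5 (-0.51, -0.91 to -0.12). In these 3 classes the window was less accessible at D5 while the counted Ccl1 RNA was higher.

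**Figure D2:**
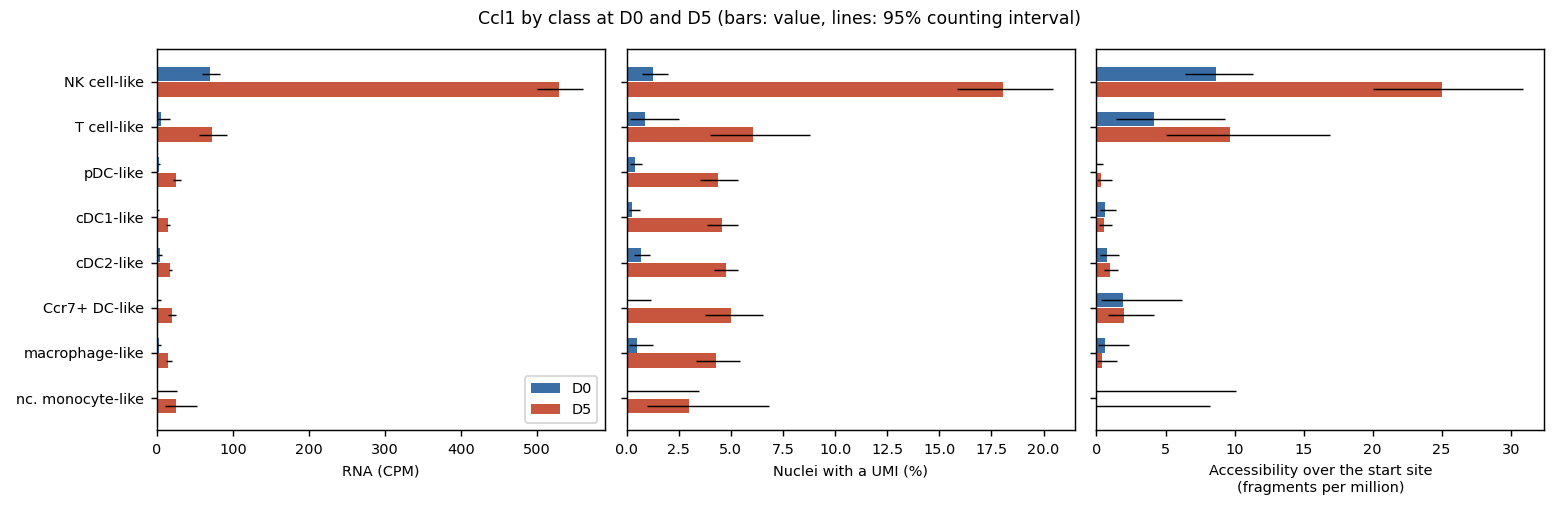
Ccl1 in the 8 classes at D0 and D5: RNA in CPM, the percentage of nuclei with a UMI, and accessibility in FPM in the region over the start site; bars are values and lines 95% counting intervals. All 3 readouts are highest in NK cell-like nuclei at D5 (530 CPM, 18.1% of nuclei and 25.0 FPM).

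Ccl3 and Ccl4, neighbours on chromosome 11 that encode the inflammatory chemokines MIP-1alpha and MIP-1beta, were, among the 8 classes compared, highest in NK cell-like and T cell-like nuclei on both days and lower at D5. Ccl3 in NK cell-like nuclei was 1062 CPM (1017 to 1107) at D0 and 788 (751 to 826) at D5, and in T cell-like nuclei 806 and 454 CPM. Ccl4 in NK cell-like nuclei was 3375 CPM (3296 to 3456) at D0 and 2177 (2115 to 2240) at D5, and in T cell-like nuclei 2983 and 1701 CPM. The log2 ratios were -0.43 and -0.83 for Ccl3 and -0.63 and -0.81 for Ccl4, none of which reached 2-fold. The free RNA was lower at D5 for both genes too: with free RNA scaled by hepatocyte transcripts subtracted, the ratios in NK cell-like nuclei turned to 0.37 for Ccl3 and 0.16 for Ccl4, and scaled by markers of other lineages they were -0.23 and -0.49.

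Ccl3 and Ccl4 were often found in the same NK cell-like nuclei. A Ccl3 UMI was found in 48.0% of NK cell-like nuclei at D0 and 43.8% at D5, and a Ccl4 UMI in 81.8% and 75.6%. Of the nuclei with Ccl3, 88.2% at D0 and 85.8% at D5 also had Ccl4, above the share of all NK cell-like nuclei with Ccl4. Deeper nuclei show more of both genes, and the part of depth in this overlap was not tested.

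In the myeloid classes among these 8, Ccl3 and Ccl4 lay lower in CPM. Ccl4 was 932 CPM at D0 and 842 at D5 in cDC2-like nuclei, with a UMI in 62.4% and 62.2% of them. Macrophage-like nuclei had Ccl4 at 976 and 589 CPM. In number of UMIs, cDC2-like nuclei held more than NK cell-like nuclei at D5 (2982 against 1714 for Ccl3, 13632 against 4736 for Ccl4). At D0 they held fewer (1215 against 2150, 3796 against 6836). Free RNA is part of these counts. A neutrophil-like cluster of 93 nuclei at D5, too small at D0 (6 nuclei) to be one of the 8, had Ccl3 at 722 CPM (608 to 851), above T cell-like nuclei and with an interval that overlapped that of NK cell-like nuclei, and Ccl4 at 1249 CPM (1098 to 1416), against 94.7 and 410.02 CPM from free RNA scaled by markers of other lineages and 279 and 1208 CPM scaled by hepatocyte transcripts. Macrophage-like nuclei had Ccl3 at 378 CPM at D0 and 185 at D5, a log2 ratio of -1.03 (-1.18 to -0.87), and cDC2-like nuclei had 298 and 184 CPM. The macrophage-like ratio was -0.72 with TMM factors, -0.71 with DESeq2 size factors and -0.69 at Leiden resolution 2, all under 2-fold. The makeup of the macrophage-like class differed between the days: a finer cluster led by C1qa, C1qb and Apoe, which also raised Clec4f and Vsig4, was 71.8% of it at D0 and 30.7% at D5, and an unnamed one led by Klra2, Clec4a3 and Tgfbi was 25.1% and 59.7%. Ccl3 was 406 and 251 CPM in the first and 308 and 155 in the second. Within the cDC2-like class the clusters differed: the cluster led by Adgrl3 and Frmd5 held Ccl3 at 342 CPM (297 to 392) at D0 and 486 (442 to 532) at D5, while the other 2 clusters were lower at D5 than at D0 (308 and 197 CPM, 256 and 110 CPM).

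In pDC-like nuclei Ccl4 was 1219 CPM (1184 to 1254) at D0 and 1262 (1227 to 1298) at D5, the third highest level of the 8 classes, with a UMI in 70.6% and 73.4% of nuclei. These levels are above the 427 and 399 CPM that free RNA at the marker-based share would give, and the log2 ratio was 0.05 (-0.01 to 0.11). pDC-like nuclei had been set as the class that should lack Ccl4, so they cannot serve as its background here. The region over the Ccl4 start site was accessible in them at 42.6 FPM at D0 and 51.4 at D5, near the 47.5 and 39.9 FPM of NK cell-like nuclei, while over the Ccl3 start site pDC-like nuclei had 20.7 and 23.4 FPM. Ccl3 RNA in pDC-like nuclei was 158 and 126 CPM, against 113 and 92.1 CPM from free RNA.

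A region between the paired genes, centred 5.42 kb upstream of the Ccl3 start site and 7.81 kb upstream of that of Ccl4, was open in NK cell-like nuclei at 24.8 FPM at D0 and 37.0 at D5 (log2 ratio 0.58, 0.23 to 0.93). T cell-like nuclei had 8.31 and 23.8 FPM there (1.52, 0.48 to 2.66). The other 6 classes had at most 2.73 FPM on either day. This lymphoid-selective region was more accessible at D5, while the RNA of both genes was lower. It is 1 of 4 regions that the windows of Ccl3 and Ccl4 share, and it cannot be assigned to either gene.

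Ccl5, the chemokine RANTES that cytotoxic lymphocytes keep as a standing transcript, was close to constant in the lymphoid classes. T cell-like nuclei had 6208 CPM (5990 to 6431) at D0 and 5374 (5221 to 5530) at D5, and NK cell-like nuclei 5237 (5137 to 5337) and 5091 (4997 to 5187). The log2 ratios were -0.21 in T cell-like and -0.04 in NK cell-like nuclei, and with free RNA subtracted they were 0.33 and 1.25 (scaled by hepatocyte transcripts) or 0.03 and 0.23 (by markers of other lineages). A Ccl5 UMI was present in at least 98.3% of the nuclei of both classes on both days. Of NK cell-like nuclei with Ccl4, 98.7% at D0 and 99.2% at D5 also held Ccl5.

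The third class with Ccl5 was a dendritic one. Ccr7+ DC-like nuclei, the mature migratory state of dendritic cells, held 2851 CPM (2728 to 2978) at D0 and 2227 (2173 to 2282) at D5, with a UMI in 90.9% and 85.3% of nuclei and a mean of 7.003 and 7.31 UMIs in those. Free RNA at the marker-based share would give 849 and 621 CPM, and with it subtracted the log2 ratio went from -0.36 to 0.03, or to 0.98 with the share from hepatocyte transcripts. In pDC-like nuclei, the class set for reading free RNA, Ccl5 was 666 and 455 CPM, close to the 639 and 518 CPM that free RNA would give, with a UMI in 64.2% and 54.5% of nuclei. Accessibility showed the same 3 classes: the region over the start site had 38.9 FPM at D0 and 40.5 at D5 in NK cell-like, 39.7 and 38.7 in T cell-like and 37.0 and 29.2 in Ccr7+ DC-like nuclei, against 2.43 to 11.7 FPM in the other 5 classes. The region 4.45 kb upstream was highest in the lymphoid classes (62.2 and 78.4 FPM in NK cell-like nuclei) and lower in Ccr7+ DC-like nuclei (34.3 and 30.1 FPM).

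Ccl22, the CCR4 ligand also called MDC, was the ligand most closely tied to Ccr7+ DC-like nuclei. It stood at 952 CPM (881 to 1026) there at D0 and 426 (402 to 450) at D5, a log2 ratio of -1.16 (-1.30 to -1.02). At Leiden resolution 2 most of the class was a cluster led by Fscn1 and Ccr7 (82.1% at D0 and 74.0% at D5), where Ccl22 was 1040 and 429 CPM. A cluster led by Il12b (17.2% on both days) had 607 and 589 CPM with overlapping intervals, and an unnamed one led by Adgrl3 held 1 nucleus at D0 and 89 at D5 (8.59%), at 38.5 CPM. The share of Ccr7+ DC-like nuclei with a UMI was 41.7% at D0 and 27.2% at D5, or 33.2% and 17.2% after thinning to 1000 UMIs, against 2.91% and 3.97% in NK cell-like nuclei. Ccr7+ DC-like nuclei stood 5.08-fold above the next class, cDC2-like, at D0 and 3.67-fold at D5. In number of UMIs the larger cDC2-like class held more of the transcript, 37.0% of all Ccl22 UMIs at D0 and 38.9% at D5.

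The sign of the difference in Ccl22 between the days was not the same in all dendritic classes. In cDC1-like nuclei it was 21.7 CPM (17.6 to 26.6) at D0 and 81.6 (76.2 to 87.2) at D5, a log2 ratio of 1.91 (1.60 to 2.23), with a UMI in 3.92% and 10.3% of nuclei. At D0 that level was near the 19.2 CPM of free RNA, and at D5 it was above the 26.4 CPM. The difference lay mainly in 1 of 3 cDC1-like clusters, the one with the most nuclei (29.0 CPM at D0 and 103 at D5). Within it, it rested on nuclei at the border of the class: a finer clustering (Leiden resolution 2) put 10 cDC1-like nuclei at D0 and 173 at D5 (5.45%) into a Ccr7+ DC-like cluster led by Il12b, and these held 549 of the 873 Ccl22 UMIs of the class at D5, at 931 CPM (855 to 1012). The 4 other finer clusters of the class with at least 50 nuclei had 7.59 to 26.3 CPM at D0 and 21.2 to 43.3 at D5. With classes rebuilt at that resolution the log2 ratios of Ccl22 were 0.75 in cDC1-like and -0.76 in Ccr7+ DC-like nuclei, both under 2-fold, so the opposite directions remained and both 2-fold differences did not. The levels of the 4 finer clusters lay on both sides of the 19.2 and 26.4 CPM of free RNA. The remaining cDC1-like ratio is thus between levels near background. In cDC2-like nuclei Ccl22 was 187 and 116 CPM (-0.69, -0.81 to -0.57), and nearly all of it was in the cluster led by Tnfsf9, Tnip3 and Mgl2, at 307 and 175 CPM, where the other 2 clusters had 20.2 to 39.9 CPM. The makeup of that cluster differed between the days: a finer cluster led by Tnip3 and Retnla was 69.7% of it at D0 and 6.93% at D5. The part of this in the Ccl22 levels was not tested.

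The Ccl22 start site lies on chromosome 8 at position 94745590 (mm10, plus strand). Start sites are those of the deposited gene table, and for Ccl22 and Cxcl2 the start that RefSeq uses for the promoter lies a little further downstream. Its RefSeq promoter is shown as that of a ligand whose start site was most open in the Ccr7+ DC-like, cDC2-like and cDC1-like classes. It has no capitals, because none of 6 motifs searched on both strands matched, which says only that these letters are not in this window. The motifs were the TATA box TATAAA (in 14.2% of all promoters), the AP-1 motif TGANTCA (7.93%), the NF-kB consensus, the PU.1 motif GAGGAAGT (3.28%), the Runx motif TGTGGT (16.9%) and a GAAA followed by another GAAA after any 2 bases, as in interferon elements (3.49%).
Ccl22 promoter (GRCm38.p6, chr8:94745434-94745733, plus strand): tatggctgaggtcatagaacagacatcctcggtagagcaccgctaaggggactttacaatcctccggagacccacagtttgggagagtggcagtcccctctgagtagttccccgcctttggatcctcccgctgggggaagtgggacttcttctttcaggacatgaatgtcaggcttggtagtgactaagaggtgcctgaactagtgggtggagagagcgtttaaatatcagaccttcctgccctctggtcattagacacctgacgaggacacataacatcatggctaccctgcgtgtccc

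Accessibility over the Ccl22 start site was 34.7 FPM at D0 and 28.5 at D5 in Ccr7+ DC-like, 24.7 and 26.7 in cDC2-like and 15.5 and 17.8 in cDC1-like nuclei, and at most 2.26 FPM in NK cell-like and T cell-like nuclei. Macrophage-like nuclei, at 13.5 and 13.2 FPM, were close to cDC1-like ones, while pDC-like nuclei had 1.21 and 0.557. A region 5.62 kb upstream followed the RNA more narrowly, with 24.6 and 22.9 FPM in Ccr7+ DC-like and 11.5 and 9.76 in cDC2-like nuclei, and at most 6.36 FPM in any other class. Neither region differed between the days beyond its counting interval in Ccr7+ DC-like or cDC1-like nuclei.

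Ccl17, the other CCR4 ligand (TARC), changed its highest class. In Ccr7+ DC-like nuclei it was 282 CPM (244 to 324) at D0 and 90.0 (79.4 to 102) at D5, a log2 ratio of -1.65 (-1.92 to -1.38), with a UMI in 21.0% and 11.2% of nuclei. In cDC2-like nuclei it was 87.1 CPM (78.3 to 96.7) at D0 and 135 (129 to 141) at D5, a log2 ratio of 0.63 (0.47 to 0.80), with a UMI in 7.91% and 13.5% of nuclei. The cDC2-like share of all Ccl17 UMIs was 27.7% at D0 and 54.4% at D5, on days when cDC2-like nuclei made up 18.9% and 28.5% of all nuclei. NK cell-like nuclei, read as background, had 32.1 and 34.5 CPM and a UMI in 3.81% and 6.32% of nuclei, at median depths of 1220 and 1733 UMIs against 2008 and 2502.5 in Ccr7+ DC-like nuclei. Near-empty barcodes held Ccl17 at 127 CPM at D0 and 129.8 at D5. In Ccr7+ DC-like nuclei free RNA was put at 22.8 and 39.6% by markers of other lineages, and at 57.6 and 68.5% by hepatocyte transcripts. Their 90.0 CPM at D5 lay above free RNA at the former share and about level with it at the latter. How much of that level is expression was not settled.

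Within the cDC2-like class Ccl17 was higher at D5 in the cluster led by Tnfsf9, Tnip3 and Mgl2 (124 and 179 CPM) and in the one led by Abca9 and Ffar2 (46.3 and 75.6 CPM). The nuclei of the first were not alike on both days. At Leiden resolution 2 a cluster led by Tnip3 and Retnla made up 69.7% of it at D0 and 6.93% at D5, one led by Tnfsf9 and Nfkbia 23.3% and 58.6%, and one led by AA467197, Creb5 and Osm 2.96% and 29.2%. Ccl17 was 138 and 96.8 CPM in the Retnla cluster, 89.03 and 41.9 in the Nfkbia cluster and 170 (88.1 to 298) and 419 (398 to 442) in the Osm cluster, so the higher level at D5 was that of the Osm cluster, which held 33 nuclei at D0 and 944 at D5. The 41.9 CPM of the Nfkbia cluster lay below what free RNA at the marker-based share of cDC2-like nuclei (35.4% at D5) would give. In Ccr7+ DC-like nuclei 70.1% of the nuclei with Ccl17 also held Ccl22 at D0 (47 nuclei) and 47.4% at D5 (55 nuclei), and in cDC2-like nuclei 39.0% and 32.2%. Free RNA counts toward the nuclei with Ccl17, and its part in these shares was not tested. Both CCR4 ligands were also lower at D5 in macrophage-like nuclei, Ccl17 at 114 and 51.8 CPM and Ccl22 at 95.4 and 38.6 CPM, against 39.5 and 23.2 CPM at D5 from free RNA scaled by markers of other lineages. The D5 intervals (45.3 to 58.9 and 33.1 to 44.8) lay above those values and below the 129.8 and 76.2 CPM from free RNA scaled by hepatocyte transcripts. The finer clustering put 3 nuclei of the class at D0 and 64 at D5 (4.22%) into a Ccr7+ DC-like cluster led by Fscn1 and Ccr7. Their part in the class levels was not tested. With TMM factors both ratios were under 2-fold (-0.82 for Ccl17 and -0.997 for Ccl22), and the makeup of the class described for Ccl3 moved with them. In its C1qa cluster the levels were 145 and 25.1 CPM for Ccl17 and 106 and 27.9 for Ccl22. In its Klra2 cluster they were 32.9 and 39.8 CPM for Ccl17 and 54.1 and 25.6 for Ccl22. At D5 both clusters lay below the class levels. There Ccl17 was near or below its 39.5 CPM from free RNA, and Ccl22 was near its 23.2 CPM. Neither ligand is therefore called made by macrophage-like nuclei at D5.

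The window of Ccl17 did not follow its RNA by class. It was highest in cDC1-like nuclei (101 FPM at D0 and 121 at D5), where Ccl17 RNA was 29.98 and 27.4 CPM against 21.7 and 44.9 CPM from free RNA, and 95.7 and 95.02 FPM in cDC2-like nuclei. The region over the start site was the nearest to the RNA pattern, with 20.8 FPM at D0 and 15.8 at D5 in Ccr7+ DC-like, 13.9 and 16.4 in cDC2-like and 14.7 and 15.4 in cDC1-like nuclei. The cDC1-like values were raised by the regions 6.63 and 7.94 kb upstream, at 24.1 and 21.9 FPM at D0 and 31.3 and 28.2 at D5.

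Cxcl16, which recruits CXCR6+ lymphocytes and serves as a scavenger receptor on myeloid cells, was highest in Ccr7+ DC-like nuclei on both days. Ccr7+ DC-like nuclei had 546 CPM (493 to 603) at D0 and 512 (487 to 539) at D5, macrophage-like nuclei 246 and 244, cDC2-like nuclei 242 and 191 and cDC1-like nuclei 115 and 111. The ratio in cDC2-like nuclei, -0.34 (-0.44 to -0.23), was the only one of these 4 with an interval that excludes 0. A UMI was found in 64.3% and 65.7% of Ccr7+ DC-like nuclei, against 3.88% and 6.96% of NK cell-like nuclei. Of the Ccr7+ DC-like nuclei with Ccl22, 70.7% at D0 and 78.4% at D5 held Cxcl16 too. T cell-like (18.2 and 48.0 CPM) and pDC-like nuclei (17.5 and 36.4 CPM) were more than 2-fold higher at D5, yet on both days below the level that free RNA would give (43.6 and 54.0, 29.4 and 54.7 CPM).

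At the Cxcl16 start site, in a region that also covers the start of Zmynd15, accessibility was 45.1 FPM at D0 and 47.2 at D5 in Ccr7+ DC-like, 42.3 and 43.3 in cDC2-like and 36.0 and 34.2 in macrophage-like nuclei, and no more than 15.3 FPM in the lymphoid classes. Over the window, Ccr7+ DC-like nuclei had 201 and 238 FPM (log2 ratio 0.24, 0.04 to 0.45) and cDC2-like nuclei 215 and 232. Of the 5 regions in the window, 4 lie nearer to the start of another gene, and with the remaining one alone, which is that over the start site, the Ccr7+ DC-like ratio was 0.07 (-0.37 to 0.52). The most open region of the window, 7.85 kb downstream, was accessible in every class, at 49.96 to 98.7 FPM, with pDC-like nuclei (61.7 and 65.3 FPM) below Ccr7+ DC-like (81.6 and 98.7) and cDC2-like nuclei (90.7 and 93.1) on both days.

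Cxcl2, a neutrophil attractant also called MIP-2, was highest in macrophage-like nuclei, at 409 CPM (379 to 441) at D0 and 273 (258 to 289) at D5, a log2 ratio of -0.58 (-0.72 to -0.44). A UMI was found in 20.9% and 14.0% of these nuclei, with a mean of 3.98 and 5.78 UMIs in those, against 0.831% and 2.89% of NK cell-like nuclei. The direction was not the same in the finer clusters described for Ccl3. Cxcl2 was 538 CPM (497 to 582) at D0 and 656 (614 to 699) at D5 in the C1qa cluster. In the Klra2 cluster it was 103 (75.1 to 139) and 57.8 (48.9 to 67.8). In macrophage-like nuclei rebuilt at Leiden resolution 2, which leave out the unnamed Klra2 cluster, the log2 ratio was 0.29. The part of the makeup of the class in these ratios was not tested. Macrophage-like nuclei stood 11.2-fold above the next class at D0 and 2.74-fold at D5, when nonclassical monocyte-like nuclei had 99.96 CPM (27 UMIs, against 5 UMIs and 36.0 CPM at D0). Their share of all Cxcl2 UMIs was 66.1% at D0 and 35.2% at D5.

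Much of that difference in share belonged to a class too small for the comparison of days. The neutrophil-like cluster held 6 nuclei at D0 and 93 at D5, and at D5 it had 863 Cxcl2 UMIs, or 4419 CPM (4129 to 4724), with a UMI in 80.6% of nuclei. These 93 nuclei carried 24.8% of all Cxcl2 UMIs at D5. The gate on CD11c+ would remove most neutrophils, so their number need not stand for the tissue. Ccr7+ DC-like nuclei had 14.0 CPM at D0 and 40.3 at D5 (log2 ratio 1.52, 0.59 to 2.62), against 11.0 and 20.01 CPM from free RNA.

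The Cxcl2 start site lies on chromosome 5 at position 90903871 (mm10, plus strand), and its RefSeq promoter is shown because it holds a match to the same motif as that of Ccl1, in a gene that another class makes. Capitals again mark overlapping matches to the NF-kB consensus, here from -97 to -88 and from -96 to -87. Of the 7 ligands with a promoter in the RefSeq table, 3 hold a match (Ccl1, Ccl9 and Cxcl2), and a match is a description, not a binding site.
Cxcl2 promoter (GRCm38.p6, chr5:90903649-90903948, plus strand): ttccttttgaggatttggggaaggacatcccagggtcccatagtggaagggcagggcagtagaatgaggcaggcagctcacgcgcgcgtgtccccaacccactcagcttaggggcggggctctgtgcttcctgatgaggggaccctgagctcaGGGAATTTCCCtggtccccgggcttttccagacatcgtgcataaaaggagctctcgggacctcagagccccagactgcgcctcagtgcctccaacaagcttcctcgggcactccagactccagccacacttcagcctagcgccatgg

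The region over the Cxcl2 start site had 39.0 FPM at D0 and 34.2 at D5 in macrophage-like and 30.1 and 27.8 in nonclassical monocyte-like nuclei, and 11.6 to 17.3 FPM in the conventional and Ccr7+ DC-like classes. The 3 regions between 3.06 and 6.35 kb upstream were narrower: macrophage-like nuclei had 9.64 to 15.7 FPM there at D0 and 6.86 to 11.9 at D5, and the 6 classes other than macrophage-like and nonclassical monocyte-like had at most 3.74 FPM. Over the window macrophage-like nuclei had 84.8 FPM at D0 and 66.1 at D5 (log2 ratio -0.36, -0.60 to -0.12). Accessibility was not split by finer cluster, and the makeup of the class differed between the days here too.

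Ccl6 and Ccl9, which lie next to each other on chromosome 11 and act on CCR1, were myeloid on both days. Ccl6 in macrophage-like nuclei was 271 CPM (247 to 298) at D0 and 174 (162 to 186) at D5, a log2 ratio of -0.64 (-0.81 to -0.47), at 306 and 256 CPM in the C1qa cluster and 188 and 134 in the Klra2 cluster of the class. In nonclassical monocyte-like nuclei it was 144 CPM (88.0 to 222) at D0 and 259 (202 to 327) at D5, from 20 and 70 UMIs. cDC2-like nuclei came next with 83.4 and 70.5 CPM, and the other 5 classes ran from 13.4 to 32.4 CPM, near the level of free RNA.

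Ccl9 was shared between macrophage-like nuclei, at 187 CPM (167 to 209) at D0 and 201 (188 to 214) at D5, and cDC2-like nuclei, at 126 (115 to 138) and 143 (137 to 148), a log2 ratio of 0.18 in the latter that turned to -0.13 in nuclei with at least 2000 UMIs and to -0.26 with free RNA subtracted by hepatocyte transcripts. The class with the most Ccl9 UMIs was cDC2-like, with 40.7% of them at D0 and 45.2% at D5. Ccr7+ DC-like nuclei had Ccl9 at 59.0 and 72.0 CPM, with a UMI in 11.0% and 15.9% of them. Near-empty barcodes held 79.7 and 111 CPM. Both levels lay above free RNA at the marker-based share (22.8 and 39.6%), but at D5 not at the share from hepatocyte transcripts (68.5%). A UMI was found in 26.6% and 38.3% of macrophage-like nuclei against 3.25% and 6.59% of NK cell-like nuclei, and after thinning in 14.9% and 18.1% against 2.08% and 3.70%. In nonclassical monocyte-like nuclei Ccl9 was 36.0 CPM (5 UMIs) at D0 and 104 (28 UMIs) at D5, a log2 ratio of 1.53 with the wide interval of 0.13 to 3.26. Of macrophage-like nuclei with Ccl6, 38.7% at D0 and 48.5% at D5 also held Ccl9.

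The windows of the paired CCR1 ligands were most accessible in the class with the most RNA on both days, with no class beyond the counting interval of the next. That of Ccl6 had 45.8 FPM at D0 and 37.2 at D5 in macrophage-like and 39.7 and 53.3 in nonclassical monocyte-like nuclei, so the class order turned between the days as for the RNA, within overlapping intervals. At D0 the Ccl6 windows of cDC2-like, cDC1-like and pDC-like nuclei were alike, at 24.7, 24.1 and 23.9 FPM, where the RNA was 83.4, 22.2 and 13.4 CPM. That of Ccl9 had 108 FPM on both days in macrophage-like and 97.0 and 107 in cDC2-like nuclei. The region over the Ccl9 start site had 21.0 and 19.7 FPM in macrophage-like and 14.4 and 19.0 in cDC2-like nuclei (log2 ratio 0.40, 0.09 to 0.72, in the latter).

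**Figure D3:**
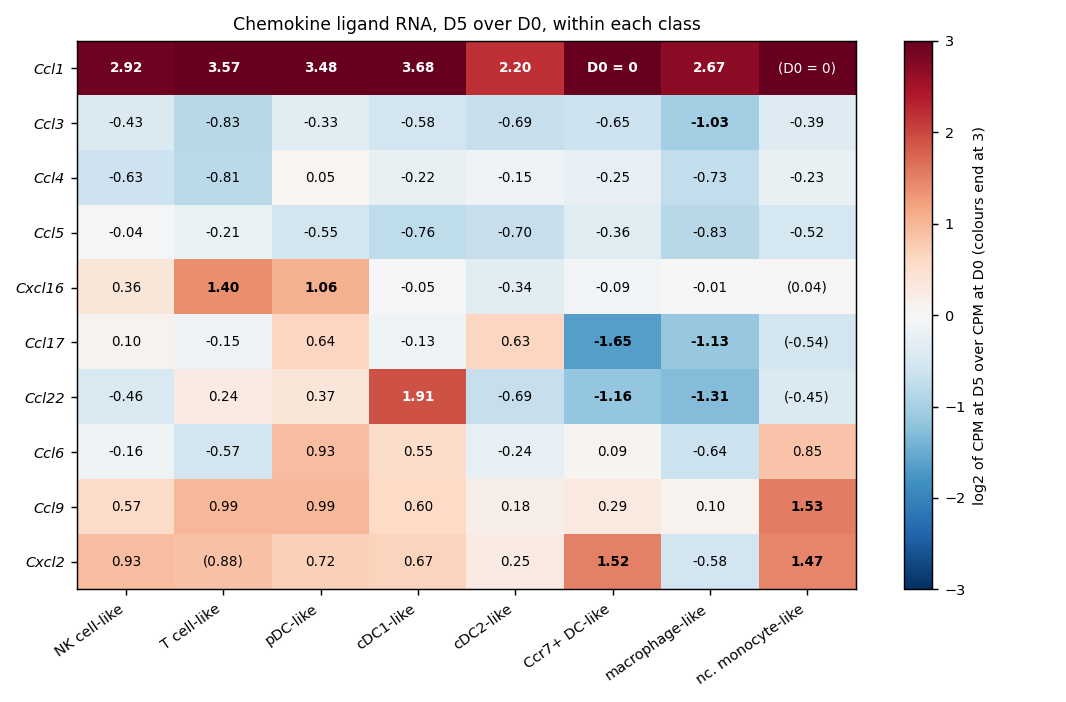
Log2 ratio of CPM at D5 over D0 for each ligand (rows) in each class (columns), red for higher and blue for lower at D5. Bold values are at least 2-fold with a 95% counting interval that excludes 0, values in parentheses have fewer than 20 UMIs, and the row of Ccl1 is red in every class while Ccl3 is at or below -0.33 in every class (0.37 in NK cell-like nuclei with free RNA subtracted by hepatocyte transcripts, and 0.08 in pDC-like nuclei with at least 2000 UMIs).

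Across ligands and classes, 75 of the pairs had at least 20 UMIs, and 13 were at least 2-fold higher and 5 at least 2-fold lower at D5 with an interval that excludes 0. Ccl1 accounts for 7 of the 13, most of them at background levels as described. The shares of all genes past the same rule are given here with each count. Higher at D5 were 1 of 10 ligands in NK cell-like nuclei (1.18% of all genes), 2 of 9 in T cell-like (1.76%), 2 of 10 in pDC-like (1.35%), 2 of 10 in cDC1-like (0.602%), 1 of 10 in cDC2-like (0.945%), 2 of 10 in Ccr7+ DC-like (2.5%), 1 of 10 in macrophage-like (0.796%) and 2 of 6 in nonclassical monocyte-like nuclei (2.8%). Lower at D5 were 3 of 10 in macrophage-like (Ccl3, Ccl17 and Ccl22; 7.58% of all genes) and 2 of 10 in Ccr7+ DC-like nuclei (Ccl17 and Ccl22; 4.47%). No ligand was lower by this rule in NK cell-like (4.06% of all genes), T cell-like (3.55%), pDC-like (2.83%), cDC1-like (7.68%), cDC2-like (7.95%) or nonclassical monocyte-like nuclei (4.23%). The median log2 ratio of the ligands was -0.69 in macrophage-like, -0.19 in cDC2-like, -0.17 in Ccr7+ DC-like, -0.15 in T cell-like, 0.03 in NK cell-like, 0.25 in cDC1-like, 0.31 in nonclassical monocyte-like and 0.68 in pDC-like nuclei, where that of all genes ran from -0.24 to -0.07. In pDC-like nuclei most ligands lay near or below the level of free RNA, whose share there was 17.2% at D0 and 33.0% at D5, and no ligand was 2-fold higher once free RNA at these shares was subtracted (0 in place of 2).

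For accessibility the rule was an interval that excludes 0, with no fold. More accessible at D5 were the windows of 4 ligands in NK cell-like (Ccl1, Ccl3, Ccl4 and Cxcl2; 6.51% of all windows), 2 in T cell-like (2.54%), 2 in pDC-like (6.74%), 4 in cDC1-like (9.06%), 4 in cDC2-like (10.1%) and 1 in Ccr7+ DC-like nuclei (3.85%), and none in macrophage-like (6.61%) or nonclassical monocyte-like nuclei (1.64%). Those of Ccl3 and Ccl4, which share 4 regions, were more accessible in 5 classes each. For Ccl4 in NK cell-like nuclei the log2 ratio of 0.20 turned to -0.23 when only regions within 2 kb were counted. Less accessible were 3 in macrophage-like (Ccl1, Ccl5 and Cxcl2; 6.68%), 2 in pDC-like (7.99%), 1 in NK cell-like (6.51%) and 1 in cDC2-like nuclei (14.2%), and none in T cell-like (2.84%), cDC1-like (10.4%), Ccr7+ DC-like (4.09%) or nonclassical monocyte-like nuclei (1.54%).

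The class with the most accessible window was the class with the most RNA for 7 of 10 ligands at D0, where this held for 29.6% of all genes, and for 6 of 10 at D5, where it held for 30.5%. The highest window stood above the next beyond its counting interval for 1 ligand at D0 (Ccl22) and 3 at D5 (Ccl1, Ccl17 and Ccl22), where this held for 16.4% and 19.2% of all windows, so most of these class orders are not resolved. Over the 8 classes, Pearson's r of window accessibility with RNA ran from 0.53 (Ccl6) to 0.97 (Ccl4) at D0 and from 0.44 (Ccl17) to 0.95 (Ccl5) at D5. The 8 points come from the same libraries and the same nuclei, and the values are a description.

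**Figure D4:**
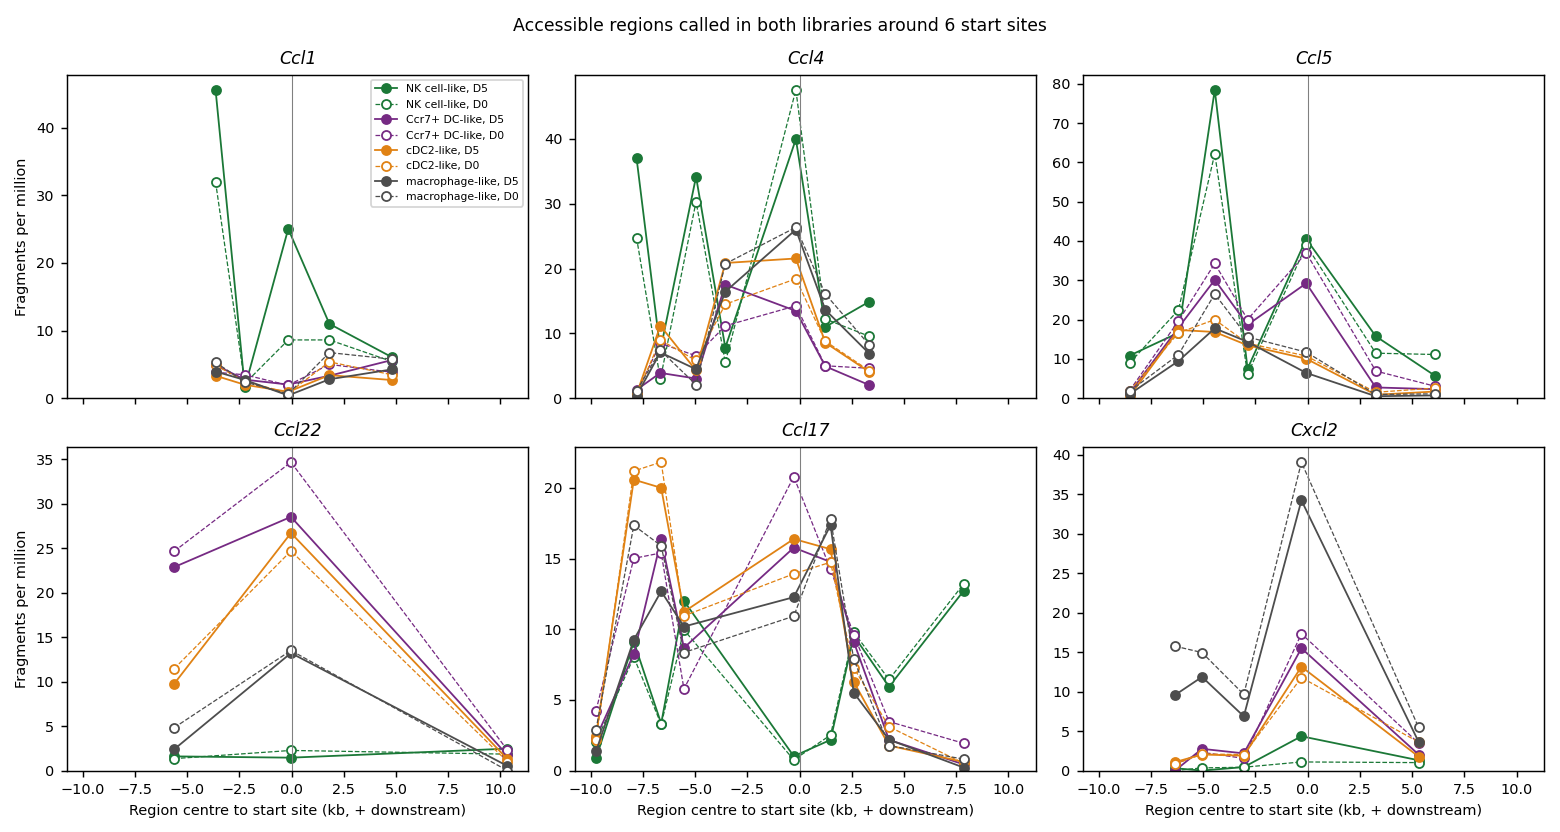
Accessibility (FPM) of each region called in both libraries against the distance of its centre from the start site (kb), for 6 ligands and 4 classes; filled points and solid lines are D5, open points and dashed lines are D0, and lines only join regions of a class. NK cell-like nuclei stand out at the start site and 3.64 kb upstream of Ccl1, macrophage-like nuclei across the Cxcl2 regions, and Ccr7+ DC-like nuclei 5.62 kb upstream of Ccl22.

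Among genes with at least 100 UMIs in their highest class (5163), the one whose log2(CPM + 1) over the 8 classes on both days was most like that of a ligand is given for 9 ligands as a description over 16 points that share 2 libraries. It was Gzmc, a granzyme, for Ccl1 (r = 0.91), Tspan32 for Ccl3 (0.95), Rasal3 for Ccl4 (0.97) and AW112010 for Ccl5 (0.96). For Ccl22 it was Etv3 (0.94), for Cxcl16 Ass1 (0.95), for Ccl9 the cytokine Osm (0.96) and for Cxcl2 the lectin Clec4n (0.96). For Ccl17 it was Ccl22 itself (0.87).

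Receptors of these ligands were read from a fixed list, and values are given for 4 of them. Cxcr6, the receptor of Cxcl16, was highest in T cell-like nuclei at 699 CPM at D0 and 513 at D5, followed by NK cell-like nuclei at 506 and 382. Ccr1 was highest in cDC2-like nuclei at 172 and 131 CPM. Ccr4 and Ccr8, the receptors of Ccl17, Ccl22 and Ccl1, had at most 2 UMIs in the class where they were highest.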

How the data were processed

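RNA and chromatin accessibility of sorted liver nuclei were measured in 2 libraries, 1 per day. The authors deposited raw counts, UMIs per gene and cut sites per peak, made with Cell Ranger ARC 2.0.2 on mm10 per the submitters' processing notes; peaks were called per library. The members and gene lists were chosen with earlier results of these data known. The layers of a library were joined by identical gene counts, since no barcodes were used here for the joint table of D5. A nucleus needed 1000 UMIs and no more than 10% of them mitochondrial, and Scrublet scores of 0.2 or higher removed 23.1% of them at D0 and 25.4% at D5. Clustering (scanpy 1.11.5, Leiden resolution 1) used both libraries and no chemokine ligand, and clusters were named from marker lists. Cut sites were divided by 2 to give fragments, and summed over regions overlapping between the libraries (89.2% of peaks at D0, 86.3% at D5). Intervals are exact Poisson for levels, exact binomial for shares and exact conditional binomial for ratios (scipy 1.17.1), at 95%, and the ratio was tested on simulated data. A floor of 3 counts stands for 0. Ratios needed 20 UMIs in a class. No column of other samples was present (0). The text names the 10 ligands, other ligands and receptors of fixed lists with at least 20 UMIs in a class, and the genes most like each ligand; some of these genes are not reported here; near-absent receptors and cluster-leading genes were named after their values were seen. Promoters are from RefSeq (GRCm38.p6) for 7 of 10 ligands. Figures were drawn with matplotlib 3.10.9. Alternatives covered doublets, depth, thinning, resolution, free RNA, per-nucleus means, TMM (edgeR 4.0.16), DESeq2 1.42.0 size factors, windows and scaling; the makeup of classes in finer clusters was described, and subtraction of free RNA scaled by markers of other lineages was added, after seeing the data.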

Additional observations from a re-analysis of the deposited data

Results flagged for a closer look

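The sign of the difference in Ccl22 between D0 and D5 was not the same in all classes. Its log2 ratio of D5 over D0 was -1.16 in Ccr7+ DC-like and -1.31 in macrophage-like nuclei and 1.91 in cDC1-like nuclei. At Leiden resolution 2 these were -0.76, -1.91 and 0.75, and with TMM factors -1.002, -0.997 and 2.23, so the 2-fold differences in Ccr7+ DC-like and cDC1-like nuclei were lost under the former and that in macrophage-like nuclei under the latter. With free RNA subtracted, by either scaling, the lower calls of Ccl17 and Ccl22 in Ccr7+ DC-like nuclei were not both kept. Of the 873 Ccl22 UMIs of cDC1-like nuclei at D5, 549 were in 173 nuclei that the finer clustering put with Ccr7+ DC-like nuclei. The difference between these classes was not tested, since each day is 1 library.

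Both other values lie outside the 8 compared classes. Ccl17 reached 390 CPM at D0 in an unnamed cluster led by Ifit3, Ifit1 and Rsad2, genes known as interferon-induced, from 79 UMIs in 81 nuclei, against 127 CPM in near-empty barcodes, and it was 87.5 CPM in the 80 nuclei of that cluster at D5. This is above the 282 CPM of Ccr7+ DC-like nuclei at D0. Cxcl2 reached 4419 CPM in 93 neutrophil-like nuclei at D5, against 50.6 CPM in near-empty barcodes, where D0 had 7 UMIs in 6 nuclei.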

How the results depend on the processing

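Counts here are of ligands higher or lower at D5 by the rule of the report, with the reported count first. Without doublet removal the count of ligands at least 2-fold above the next class at D0 went from 5 to 3, higher in T cell-like from 2 to 4, and higher in nonclassical monocyte-like and pDC-like from 2 to 1. With at least 2000 UMIs per nucleus, higher went from 2 to 1 in T cell-like and from 2 to 0 in nonclassical monocyte-like, and lower from 0 to 1 in NK cell-like nuclei. With nuclei thinned to 1000 UMIs, higher went from 2 to 0 in Ccr7+ DC-like and from 2 to 1 in nonclassical monocyte-like, and lower from 3 to 1 in macrophage-like nuclei. At Leiden resolution 2, higher went from 2 to 1 in T cell-like and cDC1-like and from 1 to 2 in cDC2-like, and lower from 2 to 1 in Ccr7+ DC-like nuclei. With free RNA subtracted (scaled by hepatocyte transcripts, a share capped at 100% of a class), the class-selective count at D5 went from 4 to 7, higher from 2 to 0 in Ccr7+ DC-like and T cell-like, 2 to 1 in cDC1-like and nonclassical monocyte-like, 1 to 0 in macrophage-like and 1 to 2 in NK cell-like, and lower from 2 to 1 in Ccr7+ DC-like, 0 to 1 in cDC2-like and 3 to 0 in macrophage-like nuclei. With it scaled by markers of other lineages, an alternative chosen after seeing the data, higher went from 2 to 1 in Ccr7+ DC-like, T cell-like and cDC1-like, 2 to 0 in pDC-like and 1 to 0 in cDC2-like and macrophage-like, and lower from 2 to 1 in Ccr7+ DC-like and 0 to 1 in cDC1-like and pDC-like nuclei. With the mean of per-nucleus CPM, higher went from 1 to 2 in NK cell-like and 2 to 1 in nonclassical monocyte-like and pDC-like nuclei. TMM and DESeq2 size factors of D5 over D0 were -0.12 to -0.32 (log2). They are taken off the reported value, so every ratio rises. Under both, higher went from 1 to 2 in NK cell-like and 2 to 4 in pDC-like, and lower from 3 to 0 in macrophage-like nuclei.

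For accessibility with regions within 2 kb, higher went from 1 to 0 in Ccr7+ DC-like, 4 to 2 in NK cell-like and cDC1-like, 2 to 0 in T cell-like, 4 to 0 in cDC2-like, 0 to 1 in nonclassical monocyte-like and 2 to 1 in pDC-like, and lower from 0 to 1 in cDC1-like, 1 to 0 in cDC2-like, 3 to 1 in macrophage-like and 2 to 1 in pDC-like nuclei. With each region given to its nearest start site, higher went from 1 to 0 in Ccr7+ DC-like, 2 to 1 in T cell-like and pDC-like and 4 to 2 in cDC2-like, and lower from 1 to 0 in NK cell-like nuclei. Scaled by fragments near start sites, lower went from 0 to 1 in Ccr7+ DC-like, 1 to 2 in cDC2-like and 3 to 5 in macrophage-like nuclei. In classes built without doublet removal, higher went from 1 to 2 in Ccr7+ DC-like, 2 to 1 in T cell-like, 4 to 2 in cDC2-like and 0 to 1 in nonclassical monocyte-like, and lower from 0 to 2 in Ccr7+ DC-like, 1 to 0 in NK cell-like, 1 to 2 in cDC2-like, 0 to 1 in nonclassical monocyte-like and 2 to 1 in pDC-like nuclei. Direction turned for 2 called single values, both of accessibility with regions within 2 kb, Ccl4 in NK cell-like (-0.23, reported 0.20) and Ccl17 in pDC-like nuclei (0.042, reported -0.42). Of 54 RNA ratios between the days whose interval excludes 0, 13 turned sign under at least 1 alternative, none of them (0) past 2-fold as reported: 6 with free RNA subtracted by hepatocyte transcripts, 5 with it scaled by markers of other lineages, 4 each with at least 2000 UMIs, TMM and DESeq2 factors, and 1 at Leiden resolution 2 (Cxcl2 in macrophage-like nuclei). The causes were not tested.

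Of 273 recomputed counts 203 stayed within 1.5 times, and of 1207 recomputed single values 970 moved by less than their interval. The highest class changed in 4 of 140 combinations of ligand, day and setting: Ccl5 at D5 to NK cell-like and Ccl6 at D5 to macrophage-like with at least 2000 UMIs, and Ccl4 at D0 to T cell-like and Ccl5 at D5 to NK cell-like with free RNA subtracted. No paired analysis was possible because each day is 1 library. With regions within 2 kb, 3 ratios could not be given because a day had 0 fragments. Nonclassical monocyte-like nuclei held the fewest UMIs, and 6 of 10 ligands reached 20 UMIs there.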

Other observations

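Of 28 other chemokine ligands in a fixed list, 27 were in the tables and 10 had at least 20 UMIs in a class on either day. Xcl1, the ligand of the cDC1 receptor XCR1, had its highest level in NK cell-like nuclei, at 3209 CPM (3131 to 3288) at D0 and 3031 (2958 to 3105) at D5, followed by T cell-like nuclei at 2344 and 2128 CPM. Ccl24, an eosinophil attractant, was 186 CPM (166 to 208) in macrophage-like nuclei at D0, from 308 UMIs, and 5.36 CPM (3.43 to 7.97) at D5, from 24 UMIs. The C1qa cluster made up 71.8% of this class at D0 and 30.7% at D5, and Ccl24 was 257 CPM (229 to 288) and 16.04 CPM (10.2 to 24.1) within it, so the level was also lower at D5 in that cluster. In the Klra2 cluster, 25.1% and 59.7% of the class, it was 11.8 CPM (3.82 to 27.4) and 0.383 CPM (0.00969 to 2.13), from 5 UMIs and 1 UMI. The CXCR3 ligand Cxcl9 was highest in macrophage-like nuclei at D0 (255 CPM, 231 to 280) and in cDC1-like nuclei at D5 (59.8 CPM, 55.3 to 64.6). Cxcl9 in the C1qa cluster was 341 and 13.9 CPM on the 2 days, against 39.96 and 19.9 in the Klra2 cluster. Ccl2, a monocyte attractant, was 51.8 CPM in cDC2-like and 49.5 CPM in macrophage-like nuclei at D0 and highest in macrophage-like nuclei at D5, at 31.5 CPM (26.5 to 37.1). Ccl2 was 34.9 and 22.3 CPM in the C1qa cluster and 94.01 and 39.4 CPM in the Klra2 cluster. Free RNA scaled by markers of other lineages came to 6.89 and 0.846 CPM for Ccl24, 17.7 and 3.95 CPM for Cxcl9 and 8.11 and 4.40 CPM for Ccl2 in macrophage-like nuclei at D0 and D5, and to 544 and 199.5 CPM for Xcl1 in NK cell-like nuclei.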
